A study of Mus musculus with 9 samples.

Results

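The G1 cyclins and CDK inhibitors described here are 10 genes of the 54532 listed in the deposited expression table, taken by gene name: Ccnd1, Ccnd2, Ccnd3, Cdk4, Cdk6, Cdkn1b, Cdkn1c, Cdkn2a, Cdkn2b and Cdkn2c. RNA sequencing was performed on cells labelled b.End3, the name of an immortalized mouse brain endothelial line, in 3 groups of 3 libraries. Ctrl cells were untreated. Ep1 and Ep2 cells were given photodynamic therapy (PDT), in which a photosensitizer taken up by the cells is excited by light: porfimer sodium at 300 µg/mL for 90 min and then laser light of 635 nm at 100 mW/cm2, to a total of 10 J/cm2 in Ep1 and 20 J/cm2 in Ep2. All libraries came from 1 cell line, no group analysed here received the photosensitizer or the light alone, so their effects cannot be told apart, and the time between irradiation and RNA extraction is not given in the sources used here. Nothing in the labels says whether the 3 libraries of a group came from separate cultures, so p-values measure the spread between these libraries, which may be technical.

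D-type cyclins (Ccnd1, Ccnd2, Ccnd3) bind and activate the kinases CDK4 and CDK6, which phosphorylate the retinoblastoma protein and so release E2F factors that drive genes of DNA synthesis. INK4 inhibitors (Cdkn2a, Cdkn2b, Cdkn2c) bind CDK4 and CDK6 and keep them from their cyclins, while the Cip/Kip inhibitors p27 (Cdkn1b) and p57 (Cdkn1c) act mainly on cyclin E and A complexes with CDK2. Transcription of Ccnd1 follows growth factor signals, and much of the control of p27 is by protein turnover, which RNA levels do not show.

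Levels are given as FPKM, fragments scaled to gene length and library size, a scale on which genes of different length can be set side by side. Each library held 16240688 to 19509225 fragments on genes. Of the 10 genes, 8 reached 1 FPKM in 3 or more libraries and entered the test with 11727 genes in all, and 2, Cdkn2a and Cdkn2b, did not. Replicate 1 of Ep2 stood apart from replicates 2 and 3 of its group (chi-square per degree of freedom 9.16 and 13.8, against 4.64 between replicates 2 and 3), and values of the 8 genes that it moved by over 1.5 times are given without it too. Of 12 endothelial markers only Flt1 and Egfl7 passed the same filter, Erg and Emcn were at 0 in all libraries, and Pecam1 did not exceed 0.242 FPKM. Of 5 epithelial markers 4 passed, with Krt8 at 562 to 714 FPKM. The summed endothelial markers reached 10.2 to 10.4 FPKM in Ctrl, 10.3 to 11.8 FPKM with Ep1 and 13.3 to 14.4 FPKM with Ep2. Flt1 went from 6.66 to 7.04 FPKM in Ctrl to 10.4 to 11.7 in Ep2, while the Ctrl and Ep2 ranges of Cdh5 and Egfl7 overlapped. The summed epithelial markers ran from 1029 to 1081 in Ctrl libraries, 937 to 1041 in those of Ep1 and 1155 to 1372 in those of Ep2. Most of the 12 endothelial markers were thus under the filter while keratin was high, which does not go with the endothelial line named by the labels. The identity of the cells and the part of these markers in the results below were not tested.

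After 20 J/cm2, 4 of the 8 tested genes were lower than in Ctrl and the other 4 did not pass the test. Those lower were the D-type cyclins Ccnd3 and Ccnd1, the kinase Cdk4 and the INK4 inhibitor Cdkn2c. That is 50% of the 8, and 53.2% of all tested genes passed the same threshold in this comparison (23.9% as higher and 29.3% as lower), so the count is near the background. Ccnd3 had the largest change of the 8, to 0.632 of its Ctrl mean, and Cdkn2c and Cdk4 followed at 0.640 and 0.717. After 10 J/cm2 only Ccnd3 passed, 1 of 8 or 12.5%, against 11.3% of all tested genes (6.32% as higher and 4.97% as lower). Between the doses 3 of 8 passed, all lower in Ep2 (37.5%, against 44% of all tested genes, 18.8% as higher and 25.2% as lower). In bulk RNA a change in the share of cells that express a gene and a change in RNA per cell cannot be told apart.

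In the Ctrl libraries the levels spanned from 141 FPKM to 0. Cdk4 was highest, at 141 FPKM ± 2.52 (SD, n = 3), above 97.3% of tested genes. Ccnd1 followed at 59.8 ± 0.792, and Ccnd3 at 17.6 ± 1.36. The ranges of Cdkn1b (10.6 ± 0.0321) and Ccnd2 (10.6 ± 0.398) overlapped, as did those of Cdkn2c (6.47 ± 0.476) and Cdkn1c (6.35 ± 0.803), so neither pair can be ordered. Cdk6 lay below them at 3.01 ± 0.182, above 25.2% of tested genes, and Cdkn2a and Cdkn2b had no fragment. Except within the 2 overlapping pairs and the pair at 0, neighbours in this order did not overlap in Ctrl.

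**Figure D1:**
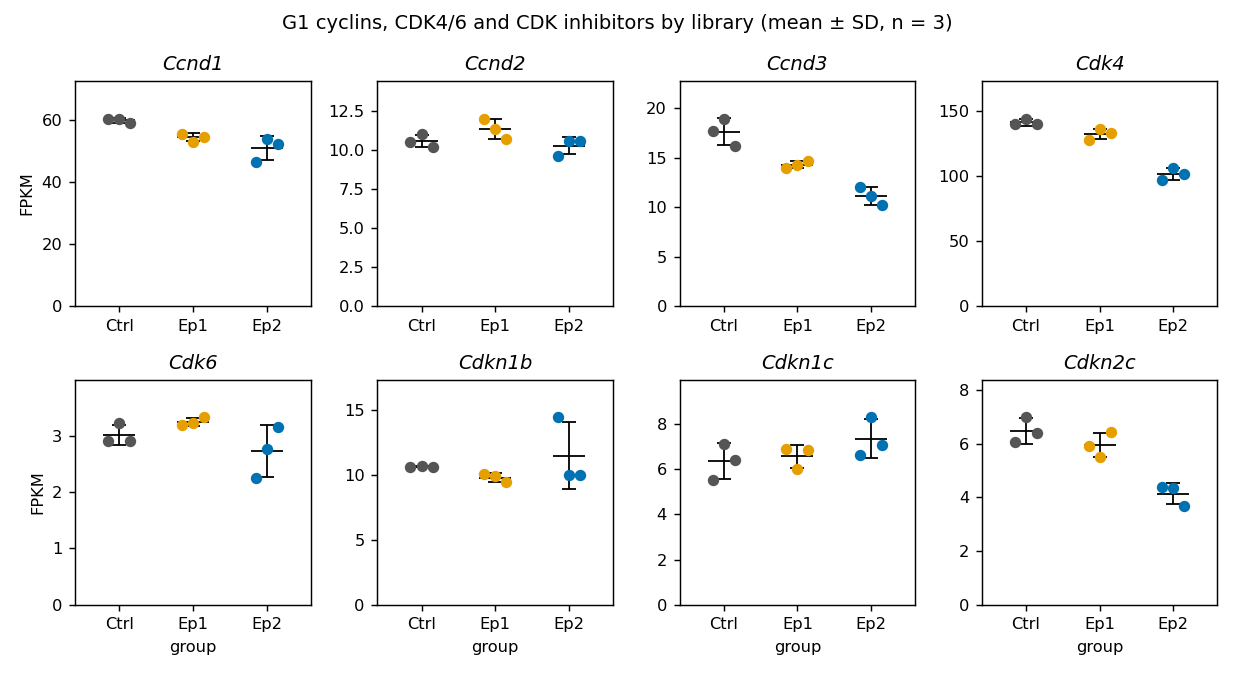
FPKM of the 8 tested genes (y axis, from 0, a separate scale per gene) in the 3 libraries of Ctrl, Ep1 and Ep2 (x axis); points are libraries, horizontal lines are means and error bars are SD with n = 3. Ccnd3, Cdk4 and Cdkn2c sit lowest in all Ep2 libraries, and replicate 1 of Ep2 is the lone high point of Cdkn1b at 14.4 FPKM.

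The stretch just upstream of an annotated transcription start is shown for the 3 genes that were lower in Ep2 than in both other groups, Cdk4, Ccnd3 and Cdkn2c, and for Cdkn1b, the CDK inhibitor with the highest mean FPKM among the 10 genes. These are the 250 bases before an annotated start in RefSeq (GRCm38.p6), in the direction of the gene, at chr10:127063285-127063534 (plus strand) for Cdk4, chr17:47504801-47505050 (plus) for Ccnd3, chr4:109666757-109667006 (minus) for Cdkn2c and chr6:134920151-134920400 (plus) for Cdkn1b. Capitals mark matches, on either strand, to the GC box GGGCGG or the E-box CACGTG.
Cdk4: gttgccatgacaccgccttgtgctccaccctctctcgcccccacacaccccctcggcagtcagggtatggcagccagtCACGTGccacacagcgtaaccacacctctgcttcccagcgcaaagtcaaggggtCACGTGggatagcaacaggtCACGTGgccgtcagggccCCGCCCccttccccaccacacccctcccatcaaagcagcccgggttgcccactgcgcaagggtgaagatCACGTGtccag
Ccnd3: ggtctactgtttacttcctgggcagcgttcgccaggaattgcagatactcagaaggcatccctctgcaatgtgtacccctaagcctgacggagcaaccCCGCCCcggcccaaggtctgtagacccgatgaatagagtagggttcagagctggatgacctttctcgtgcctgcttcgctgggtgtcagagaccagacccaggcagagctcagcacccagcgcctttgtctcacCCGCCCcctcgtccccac
Cdkn2c: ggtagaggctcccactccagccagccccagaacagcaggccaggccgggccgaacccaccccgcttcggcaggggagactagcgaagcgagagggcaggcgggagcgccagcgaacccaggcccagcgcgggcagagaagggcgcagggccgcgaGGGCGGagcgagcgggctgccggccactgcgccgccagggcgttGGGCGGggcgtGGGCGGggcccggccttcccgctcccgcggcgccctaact
Cdkn1b: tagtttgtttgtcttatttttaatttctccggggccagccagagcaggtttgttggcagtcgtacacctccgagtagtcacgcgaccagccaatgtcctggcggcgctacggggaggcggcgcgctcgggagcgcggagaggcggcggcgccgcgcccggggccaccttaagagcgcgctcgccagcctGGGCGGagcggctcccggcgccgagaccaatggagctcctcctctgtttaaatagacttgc
The Cdk4 window held 4 matches to CACGTG, the E-box bound by MYC and related factors, the nearest ending 6 bases before the start. Of 32851 such windows in RefSeq, 6.02% held at least 1 CACGTG and 7 windows (0.0213%) held at least 4. GGGCGG, the GC box bound by SP1 and related factors, was found 1 time in Cdk4, 2 times in Ccnd3, 3 times in Cdkn2c and 1 time in Cdkn1b, and in 32.7% of all windows. No match to the E2F core TTTNNCGC (4.28% of windows), the cyclic AMP response core TGACGT (6.47%) or the AP-1 site TGANTCA (6.75%) was found in these 4 windows, and no matches to different motifs overlapped. The Cdkn2c and Ccnd3 windows lie before 1 of 2 starts listed for each gene, and that of Cdkn2c lies within the gene as the deposited table lists it, its start being 433 bases from the deposited one. RefSeq windows were matched for 7 of the 10 genes, and Ccnd1, Ccnd2 and Cdkn1c were not matched. A match is a stretch of letters and does not show that a factor binds there.

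Ccnd3 encodes cyclin D3 (ENSMUSG00000034165, chromosome 17, 47505051 to 47599691, plus strand, GRCm38). It measured 17.7, 18.96 and 16.2 FPKM in Ctrl replicates 1 to 3, 14.0, 14.3 and 14.7 in Ep1, and 12.1, 11.1 and 10.2 in Ep2. Every Ep1 library lay below every Ctrl library and every Ep2 library below every Ep1 library. Against Ctrl its log2 fold change was -0.62 (SE 0.0687, 95% interval -0.77 to -0.46) in Ep2, with an adjusted p of 7.97e-05 by limma with Benjamini-Hochberg adjustment. In Ep1 it was -0.28 (SE 0.0687, -0.44 to -0.13), adjusted p = 0.0332. The doses also differed, by -0.34 (-0.49 to -0.18), adjusted p = 0.00359. The study used a further limit of an absolute log2 fold change above 0.6. Here it was applied to log2(FPKM + 1) values in a separate fit, so calls need not match those of the study. With this limit Ccnd3 in Ep2 was the 1 gene of the 8 that passed, where 9.17% of tested genes passed. Its value lay close to that limit and did not pass it with median centring (-0.57), without Ctrl replicate 2 (-0.57) or without Ep2 replicate 3 (-0.56), while Cdkn2c passed it with a pseudocount of 0.1 (-0.63) and with limma voom on fragments (-0.62). None of the 8 passed that limit in Ep1 against Ctrl or between the doses, where 0.793% and 5.9% of tested genes did. The Ep1 call was lost without Ctrl replicate 1 (adjusted p = 0.0983), without Ctrl replicate 2 (0.130), without any 1 of the Ep1 replicates (0.0763 to 0.103) and without Ep2 replicate 2 (0.0513). Bysl, a gene on the opposite strand that overlaps Ccnd3, had 18.4 to 28.7 FPKM, and whether the counting used strand is not given in the sources used here, so reads of the 2 genes may not have been separated.

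Ccnd1 encodes cyclin D1 (ENSMUSG00000070348, chromosome 7, 144929931 to 144939925, minus strand) and was the most abundant D-type cyclin in every library. It measured 60.4, 60.1 and 58.9 FPKM in Ctrl, 55.5, 53.0 and 54.4 in Ep1, and 46.5, 53.7 and 52.2 in Ep2. All treated libraries were below all Ctrl libraries, while Ep1 and Ep2 overlapped. The log2 fold change against Ctrl was -0.23 (SE 0.0534, -0.35 to -0.11) in Ep2, adjusted p = 0.00493. Replicate 1 had the lowest value of Ep2, and without it the log2 fold change was -0.17 with an adjusted p of 0.00421. In Ep1 the value was -0.14 (-0.26 to -0.02), adjusted p = 0.124, and the difference between the doses was -0.10 (-0.22 to 0.02), adjusted p = 0.173, so neither passed. Without Ep2 replicate 1 the difference between the doses was -0.03, adjusted p = 0.478.

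Ccnd2 encodes cyclin D2 (ENSMUSG00000000184, chromosome 6, 127125162 to 127152193, minus strand). Its FPKM was 10.5, 11.0 and 10.2 in Ctrl, 12.0, 11.3 and 10.7 in Ep1, and 9.64, 10.6 and 10.6 in Ep2. Ctrl overlapped with both treated groups, and all Ep2 libraries lay below all Ep1 libraries. No comparison passed: the log2 fold change was 0.09 (-0.04 to 0.22) in Ep1 and -0.04 (-0.17 to 0.09) in Ep2, with adjusted p of 0.312 and 0.576, and -0.13 (-0.26 to -0.01) between the doses, adjusted p = 0.0852. Without Ep2 replicate 1 the value of Ep2 against Ctrl was 0.00, adjusted p = 0.996.

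For the 3 D-type cyclins summed, Ctrl libraries averaged 88.0 FPKM ± 2.43 (SD, n = 3), against 79.9 ± 1.45 after 10 J/cm2 and 72.2 ± 3.68 after 20 J/cm2. By library the sums were 88.6, 90.1 and 85.3 in Ctrl, 81.5, 78.6 and 79.8 in Ep1, and 68.2, 75.4 and 73.0 in Ep2, and no groups overlapped. With 3 libraries against 3 the exact two-sided permutation test cannot go below p = 0.1, and it gave p = 0.1 for each of the 3 comparisons (0.129 after Benjamini-Hochberg adjustment over 9 tests of 3 summed values and shares). Ccnd1 made up 67.9% ± 1.14 of the sum in Ctrl, 67.9% ± 0.439 in Ep1 and 70.3% ± 1.85 in Ep2. The exact permutation p of that share, n = 3 per group, was 1 for Ep1 against Ctrl, 0.2 for Ep2 against Ctrl and 0.1 for Ep2 against Ep1 (1, 0.225 and 0.129 adjusted). The Ccnd3 share was 20.0% in Ctrl, 17.9% in Ep1 and 15.5% in Ep2, and the Ccnd2 share 12.0%, 14.2% and 14.2%.

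**Figure D2:**
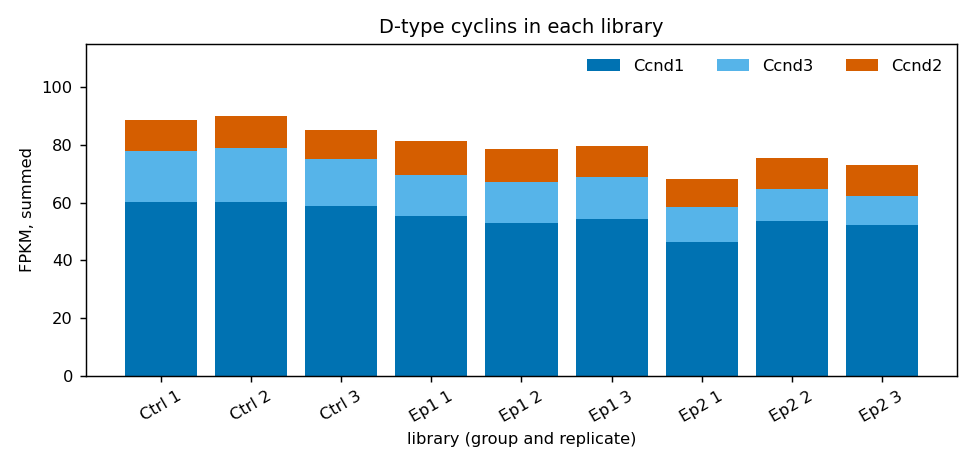
Summed FPKM of the D-type cyclins (y axis, from 0) in each of the 9 libraries (x axis), stacked by gene. The bars fall from 85.3 to 90.1 FPKM in Ctrl to 68.2 to 75.4 FPKM in Ep2, and Ccnd1 is the largest block in all of them.

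Cdk4, the kinase partner of the D-type cyclins (ENSMUSG00000006728, chromosome 10, 127063534 to 127067920, plus strand), was lower in Ep2 than in both other groups. It measured 140, 144 and 140 FPKM in Ctrl, 128, 136 and 134 in Ep1, and 96.9, 106 and 101 in Ep2. The 3 groups did not overlap, and the step from Ep1 to Ep2 was larger than that from Ctrl to Ep1. Its log2 fold change was -0.48 (SE 0.0435, -0.57 to -0.38) in Ep2 against Ctrl, adjusted p = 2.84e-05, and -0.09 (-0.19 to 0.00) in Ep1, adjusted p = 0.184. The difference between the doses was -0.38 (-0.48 to -0.28), adjusted p = 0.000149. Tspan31, which overlaps Cdk4 on the opposite strand, had 25.7 to 28.7 FPKM.

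Cdk6, the closely related kinase (ENSMUSG00000040274, chromosome 5, 3341485 to 3531008, plus strand), had levels of 2.91, 3.22 and 2.90 FPKM in Ctrl, 3.19, 3.22 and 3.33 in Ep1, and 2.24, 2.76 and 3.16 in Ep2. Ctrl overlapped with both treated groups, and the Ep2 libraries all lay below the Ep1 libraries. No comparison passed, with log2 fold changes of 0.08 (-0.11 to 0.28) in Ep1 and -0.11 (-0.31 to 0.08) in Ep2 against Ctrl, adjusted p of 0.567 and 0.299. Between the doses the value was -0.20 (-0.39 to 0.00), adjusted p = 0.0960. Without Ep2 replicate 1 it was -0.10 (adjusted p = 0.261) and without Ep2 replicate 3 -0.28 (adjusted p = 0.0216), and Ep2 against Ctrl was -0.02 without Ep2 replicate 1 (adjusted p = 0.835). Cdk4 made up 97.9% of the summed FPKM of both kinases in Ctrl, 97.6% in Ep1 and 97.4% in Ep2. That sum was 144 FPKM ± 2.70 for Ctrl, 136 ± 4.19 for Ep1 and 104 ± 4.84 for Ep2 (SD; exact two-sided permutation p = 0.1 for each comparison, n = 3 per group, 0.129 adjusted).

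**Figure D3:**
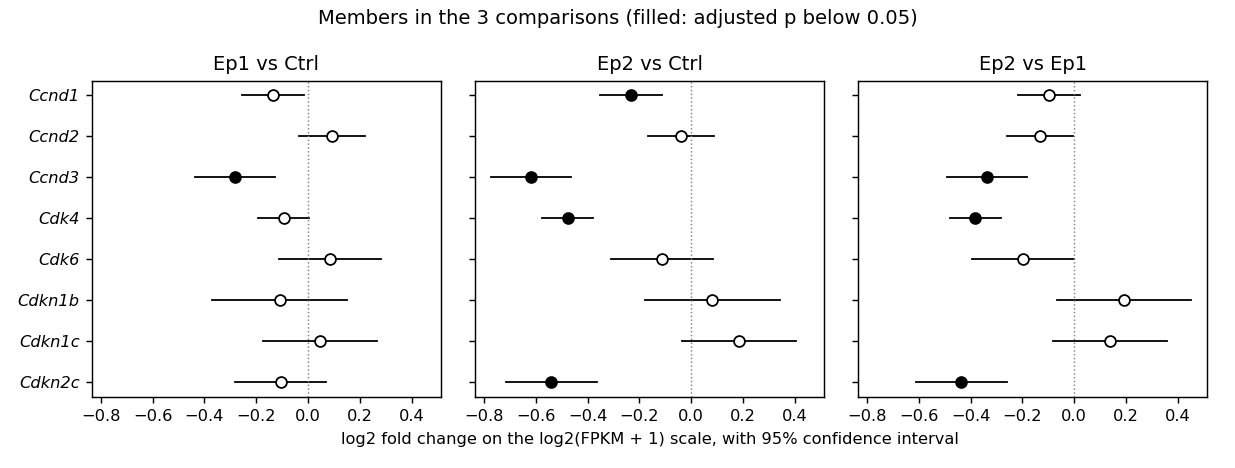
Log2 fold changes on the log2(FPKM + 1) scale (x axis) of the 8 tested genes (y axis) in the 3 comparisons, with 95% confidence intervals; filled points have an adjusted p below 0.05. Filled points are Ccnd3 alone at 10 J/cm2, Ccnd1, Ccnd3, Cdk4 and Cdkn2c at 20 J/cm2, and Ccnd3, Cdk4 and Cdkn2c between the doses, all below 0.

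Neither Cip/Kip inhibitor passed the test in any comparison. Cdkn1b, which encodes p27 (ENSMUSG00000003031, chromosome 6, 134920401 to 134925513, plus strand), measured 10.6, 10.7 and 10.6 FPKM in Ctrl, 10.0, 9.91 and 9.43 in Ep1, and 14.4, 10.0 and 9.99 in Ep2. The Ep1 libraries lay below the Ctrl libraries, and in Ep2 replicate 1 was above all Ctrl libraries while replicates 2 and 3 were below them. Ep2 differed from Ctrl by a log2 fold change of 0.08 (-0.18 to 0.34), adjusted p = 0.577, and without Ep2 replicate 1 it was -0.08, adjusted p = 0.143. In Ep1 it was -0.11 (-0.37 to 0.15), adjusted p = 0.564, and between the doses 0.19 (-0.07 to 0.45), adjusted p = 0.208 (0.03 without Ep2 replicate 1, adjusted p = 0.624). The coefficient of variation was 22.3% in Ep2 and 0.301% in Ctrl. The Ctrl libraries held 932, 951 and 899 Cdkn1b fragments, and counting error alone would give a wider spread than that of Ctrl. The closeness of the Ctrl values is thus no measure of how steady the gene is.

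Cdkn1c, which encodes p57 (ENSMUSG00000037664, chromosome 7, 143458339 to 143461050, minus strand), rested on 205 to 317 fragments per library. Its FPKM was 5.52, 7.12 and 6.42 in Ctrl, 6.88, 5.99 and 6.84 in Ep1, and 6.64, 8.31 and 7.09 in Ep2. All 3 groups overlapped with each other. The log2 fold change against Ctrl was 0.05 (-0.17 to 0.27) in Ep1 and 0.18 (-0.04 to 0.40) in Ep2, with adjusted p of 0.794 and 0.144, and 0.14 (-0.08 to 0.36) between the doses, adjusted p = 0.285.

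Cdkn2c, which encodes the INK4 inhibitor p18 (ENSMUSG00000028551, chromosome 4, 109660876 to 109667189, minus strand), was the 1 tested INK4 gene of the 3. It measured 6.04, 6.98 and 6.40 FPKM in Ctrl, 5.93, 5.50 and 6.42 in Ep1, and 4.39, 4.36 and 3.68 in Ep2, from 164 to 367 fragments per library. Ctrl and Ep1 overlapped, and all Ep2 libraries were below both. The log2 fold change of Ep2 against Ctrl was -0.54 (SE 0.0782, -0.72 to -0.36), adjusted p = 0.000364, and that of Ep2 against Ep1 was -0.44 (-0.61 to -0.26), adjusted p = 0.00177. In Ep1 against Ctrl it was -0.11 (-0.28 to 0.07), adjusted p = 0.405.

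Cdkn2a, which encodes p16 and, in another reading frame, p19ARF (ENSMUSG00000044303, chromosome 4, 89274471 to 89294653, minus strand), and its neighbour Cdkn2b, which encodes p15 (ENSMUSG00000073802, 89306299 to 89311039, minus strand), had 0 fragments in all 9 libraries. A count of 0 allows up to 3 fragments per library, or 0.131 to 0.154 FPKM for Cdkn2a and 0.110 to 0.130 for Cdkn2b, for counting error only. No fold change can be given for either. A value of 0 in all libraries was common, with 27815 of the 54532 listed genes (51.0%). Within 500000 bases of the pair 38 other genes were listed and 19 of them were at 0, the interferon genes Ifna1, Ifna4, Ifna5 and Ifne among them. Mtap, the enzyme of methionine salvage that ends before Cdkn2a (89137122 to 89181081), had 32675 fragments over the 9 libraries and 45.3 to 68.4 FPKM. Gm12606, which ends at 89273403, had 154 fragments, and Gm12609 on the far side of Cdkn2b had 0.

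**Figure D4:**
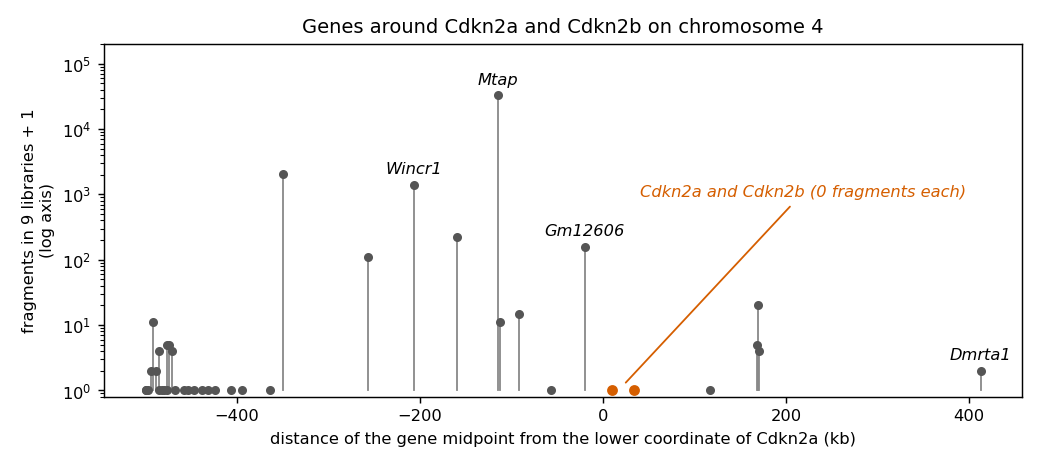
Fragments summed over 9 libraries plus 1 (y axis, log scale) of genes within 500000 bases of Cdkn2a and Cdkn2b, by the distance of the gene's midpoint from the lower coordinate of Cdkn2a in kb (x axis). Cdkn2a and Cdkn2b (orange) are at 0 fragments, and Mtap, at 32675 fragments, is the highest point.

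Whether groups overlapped was read against all tested genes as well. In Ep1 against Ctrl 4 of the 8 genes did not overlap, all lower (Ccnd1, Ccnd3, Cdk4 and Cdkn1b), where 41.3% of all tested genes did not overlap and 20.5% were lower. In Ep2 against Ctrl 4 of 8 did not overlap, all lower, against 59.7% and 32.7%. In Ep2 against Ep1 5 of 8 did not overlap, all lower (Ccnd2, Ccnd3, Cdk4, Cdk6 and Cdkn2c), against 54.4% and 30.3%. The median log2 fold change of the 8 was -0.10, -0.17 and -0.16 in these comparisons, and that of all tested genes -0.01, -0.03 and -0.01. The comparisons of Ep1 and of Ep2 with Ctrl share the Ctrl libraries.

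Around these genes 42 further genes of the G1 pathway in 5 lists were all tested. In Ep2 against Ctrl 10 rose, 15 fell and 17 did not pass, and in Ep1 5 rose and 37 did not pass. These are 59.5% and 11.9% past the threshold, near the 53.2% and 11.3% of all tested genes. The counts by list in Ep2 stand beside 23.9% of all tested genes that were higher and 29.3% that were lower. Among other CDK inhibitors 2 of 3 fell in Ep2 (66.7% beside 53.2% of all tested genes), with Cdkn2d, the INK4 inhibitor p19, from 13.3 FPKM ± 0.456 to 8.37 ± 1.86 (log2 fold change -0.63, adjusted p = 0.00329). Among cyclin E, CDK2 and their activating kinase 4 of 7 fell and 1 rose, 71.4% in all beside 53.2% of all tested genes. Ccne1, the cyclin E1 that partners CDK2, went from 31.1 FPKM ± 0.781 in Ctrl to 27.98 ± 0.627 in Ep1 and 12.6 ± 2.61 in Ep2. By limma its log2 fold change was -1.26 in Ep2 (adjusted p = 4.29e-05). In Ep1 it was -0.15 (adjusted p = 0.440) and did not pass. Mnat1, the assembly factor of the CDK-activating kinase, was the gene that passed as higher, at 0.21 and adjusted p = 0.0428, with Ctrl and Ep2 overlapping, and lost the call in 11 of 16 alternatives.

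Of 10 genes of the RB and E2F list 5 fell and 1 rose in Ep2, 60% in all beside 53.2% of all tested genes. Tfdp1, the partner of E2F factors in DNA binding, fell from 80.9 FPKM ± 1.27 to 58.7 ± 2.81 (-0.46, adjusted p = 3.53e-05). E2f3, an activating E2F, was higher in both treated groups, at 20.0 ± 1.0 FPKM in Ep1 and 19.1 ± 2.25 in Ep2 against 13.7 ± 0.152 in Ctrl (0.51 and 0.44, adjusted p = 0.00795 and 0.000906). Of 11 genes for the turnover of D-type cyclins and p27, 3 fell and 2 rose in Ep2 (45.5% beside the same 53.2%). Gsk3b, the kinase that marks cyclin D1 for breakdown, was 8.53 ± 0.289 FPKM in Ctrl, 10.7 ± 0.310 after the lower dose and 12.4 ± 0.369 in Ep2, with log2 fold changes of 0.30 and 0.50 (adjusted p = 0.00879 and 2.89e-05). Cks1b, the cofactor of SKP2 in p27 breakdown, fell from 201 ± 8.23 FPKM to 141 ± 5.09 in Ep2 (-0.51, adjusted p = 4.08e-05).

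Of 11 transcriptional inputs to D-type cyclins and inhibitors 6 rose and 1 fell in Ep2, 63.6% in all beside 53.2% of all tested genes. Hes1, a repressor downstream of Notch, averaged 9.56 ± 0.474 FPKM for Ctrl, 15.1 ± 1.02 for Ep1 and 16.7 ± 0.728 for Ep2 (0.61 and 0.75, adjusted p = 0.00318 and 1.44e-05). Ezh2, the methyltransferase that silences the Cdkn2a locus in many cells, averaged 12.9 ± 0.227 FPKM for Ctrl, 12.8 ± 0.514 for Ep1 and 6.36 ± 0.466 for Ep2 (-0.92 in Ep2, adjusted p = 4.05e-06). The list medians in Ep2 against Ctrl were -0.38 for other CDK inhibitors, -0.25 for the cyclin E list, -0.18 for RB and E2F, -0.02 for turnover and 0.14 for transcriptional inputs, beside -0.03 over all tested genes.

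**Figure D5:**
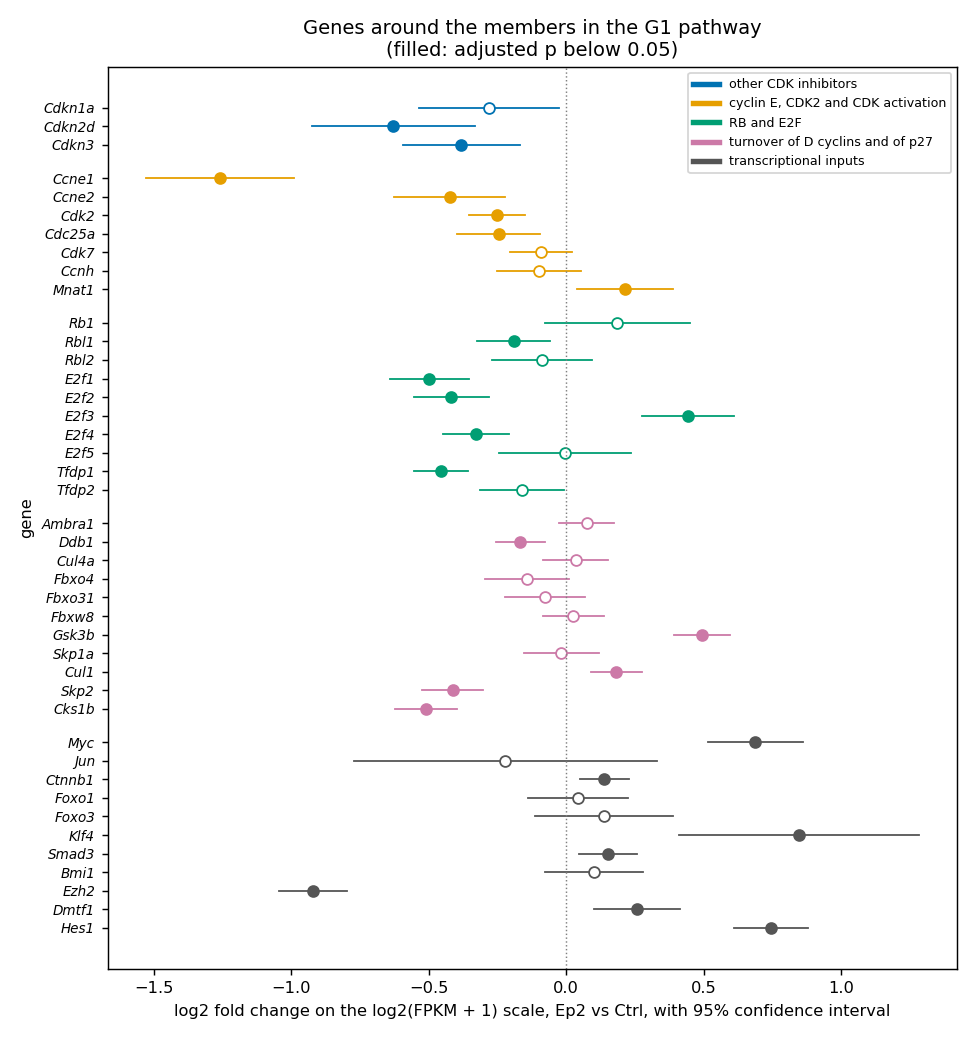
Log2 fold changes of Ep2 against Ctrl on the log2(FPKM + 1) scale (x axis) for the 42 genes of the 5 pathway lists (y axis, coloured by list), with 95% confidence intervals; filled points have an adjusted p below 0.05. Ccne1 is lowest at -1.26 and Ezh2 next at -0.92, and filled points among the transcriptional inputs other than Ezh2 lie above 0.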

How the data were processed

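The authors deposited one FPKM value per gene and library, made from paired-end RNA sequencing of 9 libraries, with gene coordinates and gene length in bases. The submitters' processing notes name Bowtie 0.12.2 and the mm8 build, the methods name GRCm39, and the listed coordinates overlap RefSeq GRCm38 for 99.9% of 36418 genes matched by symbol (12.4% for GRCm39), so they are given as GRCm38. The labels call the organism mouse and the growth text names rat. Fragments were recovered as FPKM times length in whole steps of 1 fragment, within 0.05. Genes that reached 1 FPKM in 3 or more libraries were analysed as log2(FPKM + 1) with limma 3.58.1 (trend and robust estimation, all 9 libraries in one fit, R 4.3.3) and Benjamini-Hochberg adjustment over 11727 genes at 0.05. A fold change on this scale understates that of low genes. Summed values were tested with exact permutation tests (scipy 1.17.1). On simulated data for Ep2 against Ctrl over 11727 genes, limma called 100 of 100 genes changed 2-fold and 78 of 100 changed 1.5-fold. The changed genes were drawn from those with many fragments in Ctrl, and every library had the same spread. These rates may therefore not hold for genes with few fragments or for Ep2, where replicate 1 stood apart. Genes named are the 10 members, the gene of each pathway list with the smallest adjusted p in each direction, and the genes with the most and least similar patterns to Ccnd1 and Cdkn1b, of which 1 is not reported here. Members and lists were chosen with earlier results of these data known. Alternatives were median centring, other filters and pseudocount, a replicate block, 2 groups alone, limma voom on fragments, and leaving out each library.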

Additional observations from a re-analysis of the deposited data

Results flagged for a closer look

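For 3 genes the effect of PDT differed between the 2 light doses, tested as the difference between Ep2 and Ep1 in the limma fit. The log2 fold change of Ep2 was lower than that of Ep1 by -0.34 for Ccnd3 (adjusted p = 0.00359), by -0.38 for Cdk4 (adjusted p = 0.000149) and by -0.44 for Cdkn2c (adjusted p = 0.00177). In each of the 3 genes every Ep2 library lay below every Ep1 library, which was so for 30.3% of all tested genes. The 3 genes were chosen by this same comparison in the same libraries, so this separation adds no support. The 3 genes are 37.5% of the 8 tested, and 44% of all tested genes passed the same threshold between the doses. The count is therefore not above the background.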

How the results depend on the processing

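Of 381 recomputed values of the 8 tested genes, 365 kept direction and side of the threshold, 7 lost the call, 5 gained one and 4 turned direction. In Ep2 against Ctrl 4 genes passed under all alternatives run, and Ccnd1, Ccnd3, Cdk4 and Cdkn2c were past the threshold in all 16 of them. In Ep1 against Ctrl the count of 1 became 0 with no filter, 2 with only the 2 groups compared, 2 with voom on recovered fragments, and 0 to 2 without single libraries (0 without Ctrl replicate 1 or 2, any Ep1 replicate or Ep2 replicate 2, and 2 without Ep2 replicate 1); the cause was not tested. Over all genes the Ep1 count of 1324 became 396 with no filter, 2162 with the 2 groups alone, 1995 with voom and 191 to 2183 without single libraries. Ccnd1 was the gene gained without Ep2 replicate 1 (adjusted p = 0.0250). In Ep2 against Ep1 the count was 3 to 4. Ccnd2 in Ep2 against Ctrl turned to a log2 fold change of 0.00632 with median centring and ran from -0.0636 to 0.00035 without single libraries, the upper value without Ep2 replicate 1. Without single libraries, turns were also seen for Cdkn1b in Ep2 (-0.0812 to 0.164, the lower without Ep2 replicate 1), Cdkn1c in Ep1 (-0.0378 to 0.121), Cks1b in Ep1 (-0.0458 to 0.0252), Ezh2 in Ep1 (-0.0378 to 0.00845) and E2f3 between the doses (-0.154 to 0.00725), none past the threshold. The difference in the Ccnd1 share of Ep1 against Ctrl ranged from -0.664 to 0.470 percentage points without single libraries. Mnat1 in Ep2 lost its call in 11 of 16 alternatives. Libraries with the same replicate number did not deviate together (correlations of deviations -0.0565 to 0.0744 over 9 pairs, 4 of 18 best with their own number), and with the replicate number as a block 1, 4 and 3 genes passed, as without it. Cdkn2c and Cdkn1c rested on 164 to 367 and 205 to 317 fragments per library, which limits their precision.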

Other observations

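Over the 9 libraries, which share their 3 groups, the tested genes whose log2(FPKM + 1) followed Ccnd1 most closely were Cdc42ep1 (Pearson r = 0.984), Bcr (0.983) and Ttc32 (0.980), and among the most opposite were Tmem189 (-0.969) and Txnrd1 (-0.956). For Cdkn1b the closest were Ppp1r3b (0.982), Kdm5c (0.972) and Hip1r (0.957), and the most opposite Srsf1 (-0.986), Erlin1 (-0.973) and Phf23 (-0.967). Cdkn1b was at 14.4 FPKM in Ep2 replicate 1 and at 9.43 to 10.7 FPKM in the other libraries. The Cdkn1b correlations therefore rest largely on that library, and they were not recomputed without it. The correlations of both genes are descriptions, taken as the highest and lowest of 11727 genes.

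Within 500000 bases of Cdkn2a and Cdkn2b, 3 genes chosen after their values were seen differed between Ep2 and Ctrl. In that comparison 53.2% of all tested genes passed the same threshold, so such differences are common and not particular to this region. Mtap averaged 64.3 FPKM ± 0.818 for Ctrl, 67.2 ± 1.25 for Ep1 and 52.1 ± 6.02 for Ep2 (SD, n = 3 per group; log2 fold change of Ep2 against Ctrl -0.30, adjusted p = 0.00581 by limma). The long noncoding RNA gene Wincr1 was 9.05 ± 0.741, 10.6 ± 1.153 and 13.6 ± 0.609 FPKM (0.54, adjusted p = 0.000407), and AL805899.1 was 9.12 ± 0.723, 9.16 ± 0.97 and 15.4 ± 2.28 FPKM (0.69, adjusted p = 0.000681).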
